A study of Oryza sativa with 12 samples.

Results

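Leucine-rich repeat (LRR) receptor kinases of rice roots were followed across genotype and salinity. The group comprised the 16 genes, of 24922 listed at both NaCl levels, whose deposited description contains leucine-rich repeat or LRR together with kinase, leaving out NB-ARC and wall-associated proteins. Roots came from 7-day-old seedlings transferred for 24 h to medium with 150 mM or 0 mM NaCl. The 4 groups, with 3 RNA-seq libraries each, were the OsERF106MZ-overexpressing line OE1 at 150 mM NaCl, the wild-type cultivar Tainung 67 (TNG67) at 150 mM NaCl, OE1 at 0 mM NaCl and TNG67 at 0 mM NaCl. OE1 carries 35Sp::OsERF106MZ, an ethylene response factor gene under a constitutive viral promoter, in the TNG67 background, and was the only overexpressing line sequenced. Per the study's methods, the 3 libraries of a group are biological replicates, each made from the pooled belowground tissue of several seedlings.

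An LRR receptor kinase spans the plasma membrane. Its repeats face the cell wall and bind a peptide, a steroid or a partner receptor, and its cytoplasmic part is a serine/threonine kinase that passes the signal on. Plants use the family for hormone perception, for organ and root patterning, for pollen development, for symbiosis and for defence. The rule reads the description alone, so receptors whose description does not spell out the repeats, such as those named only for brassinosteroid, are not in the group. By their descriptions, 3 of the 16 genes are similar to phytosulfokine receptors, and MSP1 (Os01g0917500), the only one that the gene table pairs with a familiar name, specifies anther cell identity. The others are given by locus number. The deposited descriptions have lost their last letter in places, so 4 genes described as leucine-rich repeat receptor-like "kinas" fell just outside the rule, and their values are given beside those of their neighbours on chromosome 2.

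The libraries held between 16326661 and 22426883 reads on genes. All 16 genes were listed in both tables, 11 of them with at least 100 reads in every library, and the lowest was Os02g0154000 with 14 reads in 1 library. OsERF106MZ (Os08g0537900) had normalised counts of 9135 to 10547 in the OE1 libraries and 667 to 958 in the TNG67 libraries. The silicon transporters Lsi1 and Lsi2 and RCc3, which mark roots, summed to between 20081 and 24723 in OE1 and between 10959 and 12917 in TNG67 at 150 mM NaCl, against 63365 to 64998 in OE1 and 52266 to 63522 in TNG67 at 0 mM NaCl. The chlorophyll a/b binding genes Os09g0346500 and Os01g0600900, which mark green shoot, summed to 102 to 177 in OE1 and 81.9 to 128 in TNG67 at 150 mM NaCl, against 1407 to 2239 in OE1 and 3481 to 4669 in TNG67 at 0 mM NaCl. None of these 5 markers was at 0 in any library. The RuBisCO small subunit gene, also chosen as a green shoot marker, was not among the genes listed at both NaCl levels and so has no values here. The labels give roots and the study's methods belowground parts, while the record's design text speaks of terrestrial parts. Both marker sums were lower at 150 mM NaCl in each genotype, and at 0 mM NaCl the green shoot sum was lower in OE1 than in TNG67. Their part in the results below was not tested, and in bulk roots fewer cells of a type cannot be told apart from less RNA per cell.

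The first question was how the receptor kinases responded to salinity in each genotype. In OE1, 5 genes rose and 5 fell under 150 mM NaCl at a Benjamini-Hochberg adjusted p below 0.05 (limma), where 19.6% of all genes tested rose and 19.2% fell. In TNG67, 6 rose and 4 fell, where 27.4% of all genes rose and 27.2% fell. Among the wider changes were a rise of Os02g0154000, described as a positive regulator of the drought response and of tiller development, to 3.33 times the 0 mM level in OE1 and 4.80 times in TNG67, a rise of Os07g0618400 to 1.81 times in OE1 and 2.27 times in TNG67, and falls in OE1 of the phytosulfokine receptor gene Os02g0629400, which was 2.17-fold lower, and of Os11g0245200, which was 2.32-fold lower. The median log2 fold change of the 16 genes was -0.04 in OE1 and -0.03 in TNG67, beside medians of 0.01 and 0 over all genes.

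Differentially expressed genes (DEGs) were defined by the same adjusted p together with a log2 fold change beyond 1. By this rule 1 receptor kinase gene was upregulated (Os02g0154000) and 2 were downregulated (Os02g0629400 and Os11g0245200) by NaCl in OE1, beside 6.66% and 5.84% of all genes. In TNG67, 2 were upregulated (Os02g0154000 and Os07g0618400) and 1 was downregulated (Os11g0245200), beside 9.53% and 9.75% of all genes. The value of Os11g0245200 in TNG67, -1.0, lay at the threshold, and edgeR and DESeq2 on the recovered reads each gave 2 DEGs there. Of the 16 genes, 8 passed the adjusted p in both genotypes, with the same sign each time, 2 passed in OE1 alone, 2 passed in TNG67 alone and 4 passed in neither. Over all genes these shares were 32% in both with the same sign, 6.43% in OE1 alone, 22.2% in TNG67 alone and 39% in neither. The sign of the NaCl effect was the same in both genotypes for 12 of the 16, beside 78.8% of all genes.

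**Figure D1:**
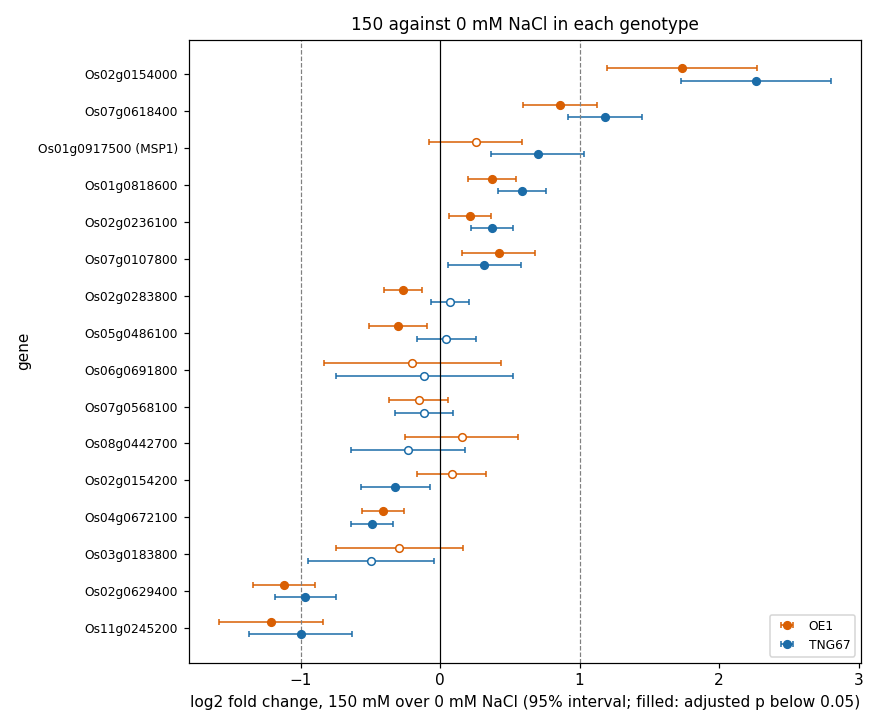
Log2 fold change of normalised counts between 150 mM and 0 mM NaCl (horizontal axis) for the 16 LRR receptor kinase genes (vertical axis), in OE1 and in TNG67. Points are limma estimates with 95% intervals, filled where the adjusted p was below 0.05, and the dashed lines mark a log2 fold change of 1 in either direction. Os02g0154000 lies furthest to the right in both genotypes (1.73 in OE1 and 2.26 in TNG67), and Os11g0245200 furthest to the left (-1.21 and -1.0).

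The second question was which receptor kinases differed between OE1 and TNG67. None of the 16 genes was a DEG between the genotypes at either NaCl level with limma, edgeR or DESeq2. Among all genes, 2.44% were higher and 3.49% lower DEGs in OE1 at 150 mM NaCl, and 2.37% were higher and 2.89% lower at 0 mM NaCl. By adjusted p alone (limma), 2 genes were higher and 1 was lower in OE1 at 150 mM NaCl, where 11.2% of all genes were higher and 14.6% lower, and scaling by library size alone in edgeR gave 4 and 0. At 0 mM NaCl, 3 were higher and 0 lower in OE1, where 9.55% of all genes were higher and 12.5% lower. The phytosulfokine receptor gene Os02g0629400 passed at both NaCl levels, Os02g0154200 and Os01g0818600 at 150 mM NaCl, and Os02g0236100 and Os02g0283800 at 0 mM NaCl.

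At an unadjusted p below 0.05, 7 genes passed between the genotypes at 150 mM NaCl with limma, 7 with edgeR and 5 with DESeq2, where 36.8%, 37.4% and 35.2% of all genes did. At 0 mM NaCl the numbers were 6, 7 and 5, beside 34.3%, 34.1% and 31.9% of all genes. Values above 0 were found for 10 of the 16 genes at 150 mM NaCl and 13 at 0 mM NaCl, beside 49.3% and 47.6% of all genes. The comparisons of genotype and of NaCl share libraries, so a high value in 1 group enters both.

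**Figure D2:**
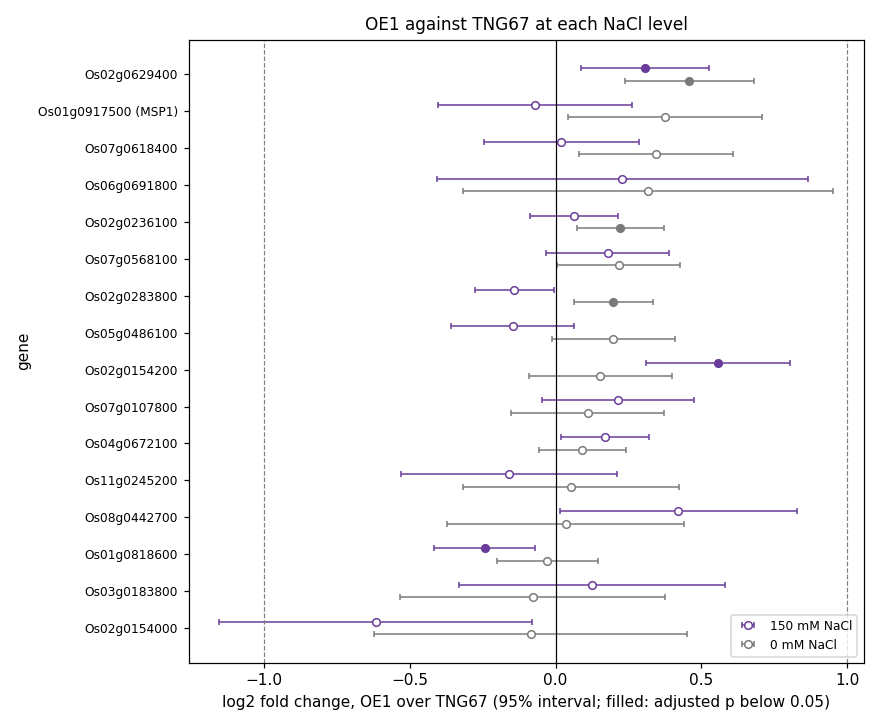
Log2 fold change of normalised counts between OE1 and TNG67 (horizontal axis) for the 16 LRR receptor kinase genes (vertical axis), at 150 mM NaCl and at 0 mM NaCl. Points are limma estimates with 95% intervals, filled where the adjusted p was below 0.05, and the dashed lines mark a log2 fold change of 1. No point reaches either line, and the filled points lie between -0.24 and 0.56.

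Phytosulfokine is a sulfated peptide that is secreted and promotes cell growth, and in Arabidopsis its receptors are LRR kinases. Of the 3 genes similar to such receptors, Os02g0629400 had normalised counts of 880.4, 919 and 849 in OE1 and 763, 822 and 577 in TNG67 at 150 mM NaCl, against 2119.7, 1763 and 1884 in OE1 and 1365, 1456 and 1362 in TNG67 at 0 mM NaCl. All libraries at 150 mM NaCl were below all libraries at 0 mM NaCl, and at each NaCl level every OE1 library was above every TNG67 library. NaCl lowered it 2.17-fold in OE1 (log2 fold change -1.12, SE 0.10, adjusted p = 2.23e-07) and 1.95-fold in TNG67 (-0.97, SE 0.10, adjusted p = 6.27e-07). The levels in OE1 were 1.24 times those in TNG67 at 150 mM NaCl (0.31, SE 0.10, adjusted p = 0.0383) and 1.37 times at 0 mM NaCl (0.46, SE 0.10, adjusted p = 0.00447). The call at 150 mM NaCl was lost when OE1 replicate 1, 2 or 3 (adjusted p = 0.0914, 0.117 and 0.0595) or TNG67 replicate 3 was left out (log2 fold change 0.16, adjusted p = 0.17), the last being the lowest library of this gene. Limma fitted on the 6 NaCl-treated libraries alone lost the call too (adjusted p = 0.0674).

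Os04g0672100, the second receptor gene, fell in both genotypes by less. It stood at 870.4, 859.6 and 892 in OE1 and 747, 798 and 787 in TNG67 at 150 mM NaCl, against 1226, 1110.4 and 1152 in OE1 and 1156, 1138 and 986 in TNG67 at 0 mM NaCl. Again no library at 150 mM NaCl reached one at 0 mM NaCl of the same genotype, and the log2 fold changes were -0.41 in OE1 (SE 0.07, adjusted p = 1.32e-04) and -0.49 in TNG67 (SE 0.07, adjusted p = 1.12e-05). Its difference between OE1 and TNG67 was 0.17 at 150 mM NaCl (95% interval 0.02 to 0.32, adjusted p = 0.0897) and 0.09 at 0 mM NaCl (interval -0.06 to 0.24, adjusted p = 0.395). With library size as the only scaling the first of these passed (0.25, adjusted p = 0.0123 with edgeR and 0.0137 with limma).

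Os07g0107800 moved the other way. Its counts were 356, 365 and 409 in OE1 and 306, 308 and 361 in TNG67 at 150 mM NaCl, against 277, 288 and 277 in OE1 and 327, 246 and 219 in TNG67 at 0 mM NaCl. The OE1 libraries at the NaCl levels did not overlap, while TNG67 replicate 1 at 0 mM NaCl was above 2 of the 3 NaCl-treated TNG67 libraries. The gene rose by 0.42 on the log2 scale in OE1 (SE 0.12, adjusted p = 0.0115) and by 0.32 in TNG67 (SE 0.12, adjusted p = 0.0392). In OE1 the adjusted p was 0.0609 without replicate 3 at 150 mM NaCl. In TNG67 the call was lost with edgeR (adjusted p = 0.0576) and DESeq2 (0.0535), and without replicates 2 or 3 at 0 mM NaCl (0.12 and 0.214) or replicate 3 at 150 mM NaCl (0.154). It was also lost with limma on the 6 TNG67 libraries (0.0779) and with a replicate block (0.0551). Library size as the only scaling lost it as well (0.0882 with edgeR and 0.0737 with limma).

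The precursors of the phytosulfokine peptide, described in 5 genes, were read beside the receptors. Os11g0149400 rose most in OE1, with 1733, 1807 and 2065 in OE1 and 1348, 924 and 1519.8 in TNG67 at 150 mM NaCl, against 302, 241 and 213 in OE1 and 189, 235 and 201 in TNG67 at 0 mM NaCl. These were log2 fold changes of 2.90 in OE1 (SE 0.18, adjusted p = 7.14e-08) and 2.57 in TNG67 (SE 0.18, adjusted p = 1.06e-07), and the groups were far apart in both genotypes. Os06g0633300 rose by 0.99 in OE1 (SE 0.16, adjusted p = 6.12e-05) and by 1.68 in TNG67 (SE 0.16, adjusted p = 5.62e-08), and Os12g0147800 by 0.73 (adjusted p = 6.48e-06) and 0.70 (adjusted p = 5.79e-06). The interaction of Os06g0633300, -0.69 (SE 0.23, adjusted p = 0.0563), missed the threshold. It passed without OE1 replicate 2 at 0 mM NaCl (0.0469) or TNG67 replicate 3 at 150 mM NaCl (0.0384), and reached 0.149 in another leave-one-out fit.

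Os07g0124100, the precursor gene with the fewest reads (8 to 256 per library), differed between the genotypes in its NaCl response. Its values were 37.0, 41.2 and 76.2 in OE1 and 149, 250.0 and 138 in TNG67 at 150 mM NaCl, against 32.0, 32.3 and 16.7 in OE1 and 19.0, 8.48 and 9.65 in TNG67 at 0 mM NaCl. The log2 fold change with NaCl was 0.89 in OE1 (SE 0.35, adjusted p = 0.0579) and 3.78 in TNG67 (SE 0.35, adjusted p = 1.37e-07), and the difference between them was -2.89 (SE 0.50, adjusted p = 0.00213). Under DESeq2 the change in OE1 passed (0.94, adjusted p = 0.0223), as it did without TNG67 replicate 1 at 0 mM NaCl, OE1 replicate 1 at 150 mM NaCl or TNG67 replicate 2 at 150 mM NaCl (adjusted p = 0.0352, 0.0441 and 0.0452). It also passed with limma on the 6 OE1 libraries (0.0412) and with library size as the only scaling (0.0414 with edgeR and 0.0467 with limma). The adjusted p reached 0.0859 in the settings that kept all libraries and 0.2555 with a library left out. The NaCl-treated OE1 libraries were all below those of TNG67 (-1.80, SE 0.35, adjusted p = 0.00131). At 0 mM NaCl the value was 1.09 (SE 0.35, adjusted p = 0.0373), with overlapping libraries, and the call was lost with edgeR (0.113) and without OE1 replicates 1 or 2 (0.135 and 0.122) or TNG67 replicates 2 or 3 (0.142 and 0.116). It was also lost with limma on the 6 untreated libraries (0.0550), with a replicate block (0.0611) and with edgeR scaled by library size alone (0.0978).

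The remaining precursor gene, Os11g0557000, had small changes of opposite sign. Its values were 537, 667 and 568 in OE1 and 591, 464 and 540.0 in TNG67 at 150 mM NaCl, against 476, 474 and 499.6 in OE1 and 646, 641 and 618 in TNG67 at 0 mM NaCl. It rose by 0.28 in OE1 (SE 0.09, adjusted p = 0.0225) and changed by -0.26 in TNG67 (SE 0.09, adjusted p = 0.0242), with an interaction of 0.55 (SE 0.13, adjusted p = 0.0134). Both NaCl changes were lost without certain libraries. These were replicates 1 or 2 at 0 mM NaCl or replicate 2 at 150 mM NaCl in OE1 (adjusted p = 0.0597, 0.0599 and 0.138), and the same replicate numbers in TNG67 (0.065, 0.0617 and 0.15). The interaction passed in every one of the leave-one-out fits, with an adjusted p of at most 0.0384. OE1 differed from TNG67 by 0.15 at 150 mM NaCl (adjusted p = 0.256) and by -0.39 at 0 mM NaCl (SE 0.09, adjusted p = 0.00551).

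Other precursor genes also differed between OE1 and TNG67. Os11g0149400 was higher in OE1 at 150 mM NaCl (0.59, SE 0.18, adjusted p = 0.0281), a call lost without OE1 replicates 2 or 3 (0.0625 and 0.0879) or TNG67 replicate 2 (0.0541). Limma on the 6 NaCl-treated libraries lost that call too (adjusted p = 0.0609). Os12g0147800 was higher in OE1 at 150 mM NaCl (0.33, SE 0.10, adjusted p = 0.0156) and at 0 mM NaCl (0.30, SE 0.10, adjusted p = 0.03). The first was lost without OE1 replicates 2 or 3 (0.081 and 0.0567) or TNG67 replicate 3 (0.0648), and the second without OE1 replicate 1 (0.152) or TNG67 replicates 1 or 2 (0.117 and 0.0534). Os06g0633300 did not pass, at -0.28 with 150 mM NaCl (adjusted p = 0.211) and 0.40 with 0 mM NaCl (adjusted p = 0.0775).

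**Figure D3:**
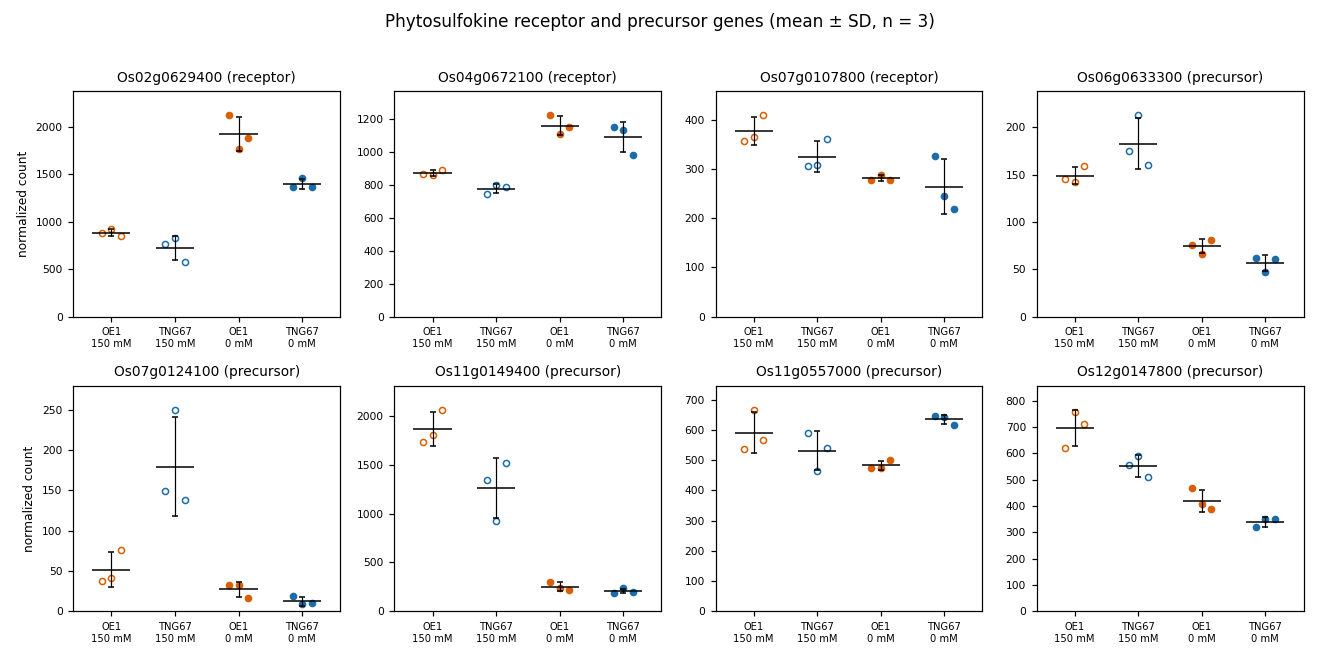
Normalised counts (vertical axes, from 0) of the 3 phytosulfokine receptor genes and the 5 precursor genes in each library, by group (horizontal axes). Bars show the mean and SD of 3 libraries. The receptor genes Os02g0629400 and Os04g0672100 are lower at 150 mM NaCl, and the precursor gene Os07g0124100 reaches 138 to 250.0 only in NaCl-treated TNG67.

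A run of LRR receptor kinase genes on chromosome 2 held the gene with the widest NaCl response of the 16 in each genotype. The genes Os02g0154000 and Os02g0154200, both in the group, have neighbouring locus numbers, and the 4 genes with the shortened description (Os02g0153100, Os02g0153200, Os02g0153700 and Os02g0153900) precede them. Genes lying so close together can be near-identical copies that share reads, and how the authors assigned such reads is not given in the sources used here, so their values are less certain than those of the other genes.

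Os02g0154000, described for drought response and tiller development, had counts of 73.0, 77.3 and 108 in OE1 and 129, 141 and 123 in TNG67 at 150 mM NaCl, against 24.3, 23.2 and 27.1 in OE1 and 15.7, 33.9 and 34.3 in TNG67 at 0 mM NaCl. Every NaCl-treated library was above every untreated one, and the NaCl-treated OE1 libraries were all below those of TNG67. The NaCl effect was 1.73 in OE1 (SE 0.26, adjusted p = 2.36e-05) and 2.26 in TNG67 (SE 0.26, adjusted p = 5.14e-07), and it passed the DEG rule in every setting and leave-one-out fit tried. OE1 was at 0.652 times the TNG67 level at 150 mM NaCl, a log2 fold change of -0.62 (SE 0.26) whose adjusted p of 0.0862 missed the threshold with limma on all 12 libraries. It passed with limma on the 6 NaCl-treated libraries alone (adjusted p = 0.0169), with edgeR (0.0321) and DESeq2 (0.0323), and with limma without TNG67 replicate 1 at 0 mM NaCl (0.024), the library with 14 reads. The interaction was -0.53 (95% interval -1.29 to 0.23, adjusted p = 0.377).

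The untreated OE1 and TNG67 libraries of Os02g0154000 overlapped, with a difference of -0.09 (95% interval -0.62 to 0.45, adjusted p = 0.855). Its neighbour Os02g0153900 followed a similar course, with 315, 240.0 and 282 in OE1 and 311, 335 and 306 in TNG67 at 150 mM NaCl, against 82.8, 113 and 108 in OE1 and 76.1, 76.3 and 104 in TNG67 at 0 mM NaCl. It rose by 1.46 in OE1 (SE 0.15, adjusted p = 4.1e-07) and by 1.90 in TNG67 (SE 0.15, adjusted p = 6.63e-09), and was thus a DEG in both. Counting the 4 genes with the shortened description, an alternative added after the data were seen, 4 of 20 genes were DEGs under NaCl in OE1 and 4 of 20 in TNG67. Over all genes, 6.66% were upregulated and 5.84% downregulated DEGs with NaCl in OE1, and 9.53% and 9.75% in TNG67.

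Os02g0154200, described for grain yield, was higher in NaCl-treated OE1 than in NaCl-treated TNG67. It stood at 338, 279 and 285 in OE1 and 204, 221 and 187 in TNG67 at 150 mM NaCl, against 333, 259 and 262 in OE1 and 259, 244 and 261 in TNG67 at 0 mM NaCl. The difference between OE1 and TNG67 was 0.56 at 150 mM NaCl (SE 0.12, adjusted p = 0.00175), where the groups did not overlap, and 0.15 at 0 mM NaCl (SE 0.12, adjusted p = 0.382), where they did. The interaction was 0.40 (95% interval 0.05 to 0.75, adjusted p = 0.126) and did not pass. The NaCl effect was 0.08 in OE1 (SE 0.12, adjusted p = 0.629) and -0.32 in TNG67 (SE 0.12, adjusted p = 0.0273). The call in TNG67 was lost without replicates 1 or 3 at 0 mM NaCl (adjusted p = 0.0674 and 0.0682) and without replicates 1 or 3 at 150 mM NaCl (0.0584 and 0.101).

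The other 3 genes of the run changed little. Os02g0153200 rose by 0.43 in OE1 (SE 0.10, adjusted p = 0.00229) and by 0.41 in TNG67 (SE 0.10, adjusted p = 0.00234). Os02g0153100 had a NaCl effect of 0.39 in OE1 (SE 0.14, adjusted p = 0.0292) and 0.29 in TNG67 (adjusted p = 0.0852), the first of which was lost without replicates 1 or 2 at 0 mM NaCl (adjusted p = 0.109 and 0.0834) or replicates 1 or 3 at 150 mM NaCl (0.0775 and 0.0903), while the second passed without TNG67 replicate 3 at 0 mM NaCl (0.036). Os02g0153700 was higher in untreated OE1 than in untreated TNG67, with 284, 386 and 283 against 222, 216 and 226 (0.50, SE 0.13, adjusted p = 0.00785), and without OE1 replicate 2 the difference was 0.35 (adjusted p = 0.0509).

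**Figure D4:**
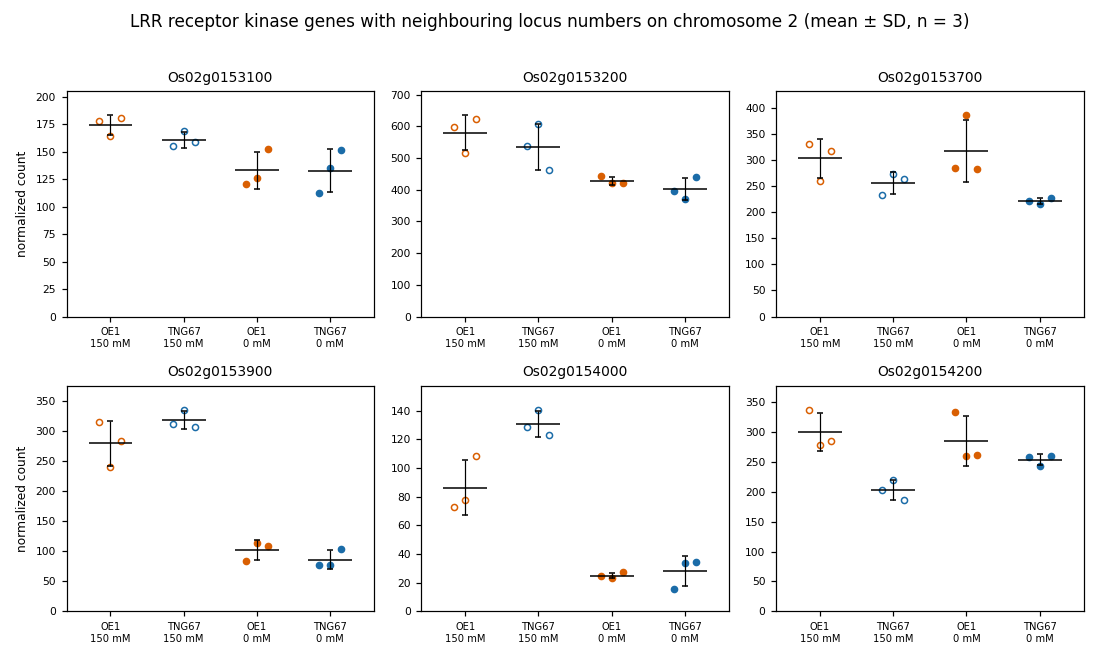
Normalised counts (vertical axes, from 0) of the 6 LRR receptor kinase genes with neighbouring locus numbers on chromosome 2 in each library, by group (horizontal axes). Bars show the mean and SD of 3 libraries. Os02g0153900 and Os02g0154000 are high in all 6 NaCl-treated libraries, and Os02g0154200 is lowest in NaCl-treated TNG67.

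Genes described for root development formed the next set. Os02g0236100, described as specifying the outer cell layer of the root, had 1021, 914 and 1029 in OE1 and 962, 973 and 902 in TNG67 at 150 mM NaCl, against 899, 790.4 and 870.0 in OE1 and 736, 706 and 749 in TNG67 at 0 mM NaCl. The untreated TNG67 libraries were the lowest of all 12, and within each genotype the NaCl-treated libraries were above the untreated ones. It rose with NaCl by 0.21 in OE1 (SE 0.07, adjusted p = 0.0255) and by 0.37 in TNG67 (SE 0.07, adjusted p = 2.35e-04). OE1 was above TNG67 by 0.22 at 0 mM NaCl (SE 0.07, adjusted p = 0.0328) and by 0.06 at 150 mM NaCl (95% interval -0.09 to 0.21, adjusted p = 0.569). The rise in OE1 was lost without OE1 replicate 2 at 0 mM NaCl (adjusted p = 0.127) or replicates 1 or 3 at 150 mM NaCl (0.0915 and 0.107). The genotype difference at 0 mM NaCl was lost without OE1 replicates 1 or 3 (0.13 and 0.0909) or TNG67 replicates 1 or 2 (0.0707 and 0.109).

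Os05g0486100 is described as a serine/threonine kinase that limits polar auxin transport and acts in root development. Its counts were 2268, 1899.9 and 2068 in OE1 and 2174, 2649 and 2101 in TNG67 at 150 mM NaCl, against 2559, 2838 and 2293 in OE1 and 2131, 2102 and 2460.4 in TNG67 at 0 mM NaCl. In OE1 the NaCl-treated libraries were all below the untreated ones, while in TNG67 they overlapped. The NaCl effect was -0.30 in OE1 (SE 0.10, adjusted p = 0.0238) and 0.04 in TNG67 (SE 0.10, adjusted p = 0.729), and their difference of -0.35 had an adjusted p of 0.125. The call in OE1 was lost without replicates 1 or 2 at 0 mM NaCl (adjusted p = 0.0615 and 0.11) or replicates 2 or 3 at 150 mM NaCl (0.103 and 0.0607). OE1 differed from TNG67 by -0.15 at 150 mM NaCl (adjusted p = 0.305) and by 0.20 at 0 mM NaCl (adjusted p = 0.171).

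Among the genes described for reproductive development, Os02g0283800 was the only one of the 16 whose NaCl response differed between the genotypes, beside 11.4% of all genes. It is described as maintaining the tapetum and pollen viability and as acting in brassinosteroid signalling, and it had 1348, 1267 and 1337 in OE1 and 1479, 1466 and 1414 in TNG67 at 150 mM NaCl, against 1641, 1506 and 1609.5 in OE1 and 1377, 1487 and 1286 in TNG67 at 0 mM NaCl. OE1 was thus above TNG67 in every untreated library and below it in every NaCl-treated one. NaCl changed it by -0.27 in OE1 (SE 0.07, adjusted p = 0.00292) and by 0.07 in TNG67 (SE 0.07, adjusted p = 0.362), an interaction of -0.34 (SE 0.09, adjusted p = 0.0232). The genotype difference was -0.14 at 150 mM NaCl (SE 0.07, adjusted p = 0.122) and 0.20 at 0 mM NaCl (SE 0.07, adjusted p = 0.0355).

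These changes of Os02g0283800 were small and close to the threshold. The interaction was lost without OE1 replicate 1 at 0 mM NaCl, TNG67 replicates 1 or 3 at 0 mM NaCl, OE1 replicate 2 at 150 mM NaCl or TNG67 replicate 1 at 150 mM NaCl (adjusted p = 0.0601, 0.0521, 0.0559, 0.0576 and 0.0556). With library size as the only scaling it was -0.27 (adjusted p = 0.0597) with edgeR and -0.28 (0.0613) with limma, which leaves no gene of the group past the threshold. The difference at 0 mM NaCl was lost without OE1 replicates 1 or 3 (adjusted p = 0.12 and 0.0942) or TNG67 replicates 1 or 3 (0.0888 and 0.156). Limma on the 6 untreated libraries (0.0576) and limma with a replicate block (0.0563) lost it too. Over all genes the interaction had 1296 values above 0 and 1537 below 0 past the threshold, against 1780 and 1175 with values rescaled to equal totals. Values below 0 were found for 11 of the 16 genes, beside 49.6% of all genes, and 3 of the 16 had an unadjusted p below 0.05, as did 26.7% of all genes.

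MSP1 (Os01g0917500), known for restricting the cells that enter sporogenesis in the anther, was read in these roots with 70 to 179 reads per library. It had 109.9, 136 and 144 in OE1 and 131, 125 and 151 in TNG67 at 150 mM NaCl, against 118, 99.9 and 106 in OE1 and 101, 74.2 and 76.2 in TNG67 at 0 mM NaCl. The NaCl-treated and untreated libraries overlapped in OE1 and did not in TNG67, with effects of 0.25 (SE 0.16, adjusted p = 0.226) and 0.70 (SE 0.16, adjusted p = 0.00102). The difference between these effects, -0.45, did not pass (95% interval -0.92 to 0.03, adjusted p = 0.214). OE1 differed from TNG67 by -0.07 at 150 mM NaCl (adjusted p = 0.793) and by 0.38 at 0 mM NaCl (adjusted p = 0.0982), and the second passed without TNG67 replicate 1 at 0 mM NaCl (0.52, adjusted p = 0.0418).

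A further 4 genes, similar to LRR transmembrane protein kinases (Os01g0818600, Os03g0183800 and Os07g0618400) or to LRR family kinases (Os11g0245200), carry no described process. Os07g0618400 had 652, 449.9 and 572 in OE1 and 624, 513 and 503 in TNG67 at 150 mM NaCl, against 285, 325 and 304 in OE1 and 252, 211 and 257 in TNG67 at 0 mM NaCl. All NaCl-treated libraries were above all untreated ones, and the rise was 1.81-fold in OE1 (0.86, SE 0.13, adjusted p = 2.54e-05) and 2.27-fold in TNG67 (1.18, SE 0.13, adjusted p = 2.96e-07). The genotypes did not overlap at 0 mM NaCl, where the difference of 0.34 had an adjusted p of 0.0582. That difference passed with limma fitted on the 6 untreated libraries (adjusted p = 0.0424), with equal totals (0.0477), and without OE1 replicates 1 or 2 at 150 mM NaCl (0.0434 and 0.0293).

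Os01g0818600 had 1091, 1129.7 and 1100.0 in OE1 and 1236, 1496 and 1216 in TNG67 at 150 mM NaCl, against 885, 880.3 and 804 in OE1 and 873, 948 and 802 in TNG67 at 0 mM NaCl. Within each genotype the NaCl-treated libraries were all above the untreated ones, and the rise was 0.37 in OE1 (SE 0.08, adjusted p = 0.00133) and 0.59 in TNG67 (SE 0.08, adjusted p = 7.30e-06). It was the only gene of the 16 that was lower in OE1 by limma at 150 mM NaCl, by -0.24 (SE 0.08, adjusted p = 0.0361). With library size as the only scaling this value was -0.16 (adjusted p = 0.115 with edgeR and 0.137 with limma), and the call was also lost without OE1 replicates 1, 2 or 3 (0.0969, 0.0606 and 0.0895) or TNG67 replicate 2 (-0.15, adjusted p = 0.208), the highest library.

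Os11g0245200 had 329, 411 and 351 in OE1 and 385, 549 and 314 in TNG67 at 150 mM NaCl, against 962, 748 and 825 in OE1 and 770.0, 882 and 784 in TNG67 at 0 mM NaCl. The NaCl-treated libraries were all below the untreated ones, 2.32-fold lower in OE1 (-1.21, SE 0.17, adjusted p = 9.67e-05) and 2.0-fold lower in TNG67 (-1.0, SE 0.17, adjusted p = 2.81e-04). It did not pass between OE1 and TNG67 at 150 mM NaCl (-0.16, 95% interval -0.53 to 0.21) or at 0 mM NaCl (0.05, interval -0.32 to 0.42). Os03g0183800, at 29.7 to 48.0 in OE1 and 32.4 to 38.4 in TNG67 with 150 mM NaCl against 43.8 to 56.5 and 48.3 to 52.6 with 0 mM NaCl, had NaCl effects of -0.29 in OE1 (adjusted p = 0.315) and -0.50 in TNG67 (adjusted p = 0.0608). The second of these passed with library size as the only scaling (adjusted p = 0.0462 with edgeR and 0.046 with limma) and without OE1 replicate 3 at 150 mM NaCl (0.0482).

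**Figure D5:**
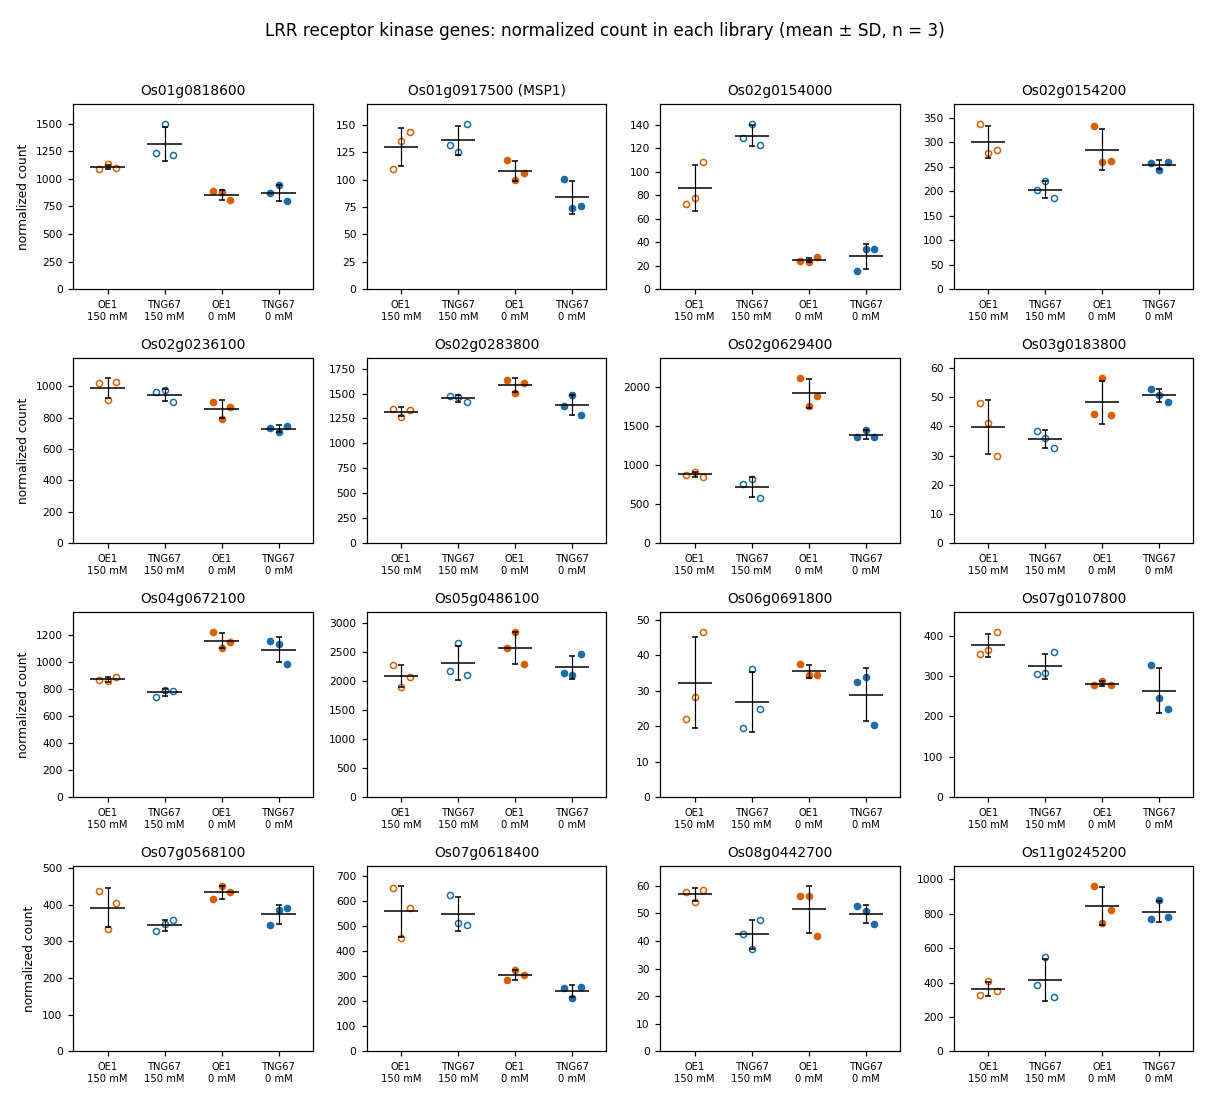
Normalised counts (vertical axes, from 0) of LRR receptor kinase genes in each library, by group (horizontal axes). Bars show the mean and SD of 3 libraries, and a point is a library. Os02g0154000 and Os07g0618400 are highest in the NaCl-treated groups, and Os11g0245200 and Os02g0629400 are lowest there.

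The genes described for defence, symbiosis and leaf veins passed in no comparison. Os07g0568100, of the common symbiosis pathway through which roots accept fungal and bacterial partners, had 439, 333 and 404 in OE1 and 328, 347 and 358 in TNG67 at 150 mM NaCl, against 416, 451 and 434 in OE1 and 344, 386 and 391 in TNG67 at 0 mM NaCl. Its NaCl effects were -0.15 in OE1 (95% interval -0.36 to 0.06) and -0.12 in TNG67 (interval -0.33 to 0.09). The OE1 libraries were above the TNG67 libraries at 0 mM NaCl (0.22, interval 0.01 to 0.43, adjusted p = 0.134), and at 150 mM NaCl the difference of 0.18 (adjusted p = 0.21) passed without OE1 replicate 2 (0.29, adjusted p = 0.0431).

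Os08g0442700, described for commissural veins, which join the parallel veins of the rice leaf, had 58.0, 54.2 and 58.6 in OE1 and 42.6, 37.1 and 47.7 in TNG67 at 150 mM NaCl, a difference of 0.42 (95% interval 0.01 to 0.83, adjusted p = 0.123). Its NaCl effects were 0.15 in OE1 (interval -0.25 to 0.56) and -0.23 in TNG67 (interval -0.64 to 0.18). Os06g0691800, described for defence against herbivores, had 19 to 58 reads per library. Its NaCl effects were -0.20 in OE1 (interval -0.83 to 0.43) and -0.11 in TNG67 (interval -0.75 to 0.52). These intervals are wide, and any change inside them is compatible with the data.

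Other signalling genes were counted by words of their descriptions, so a gene can stand in several of these lists. The list of 115 genes described with receptor and kinase but without the repeats can include receptor-like cytoplasmic kinases. Of the 115, 52 rose and 22 fell with NaCl in OE1, where 19.6% of all genes rose and 19.2% fell. In TNG67, 58 rose and 29 fell, where 27.4% of all genes rose and 27.2% fell. The median log2 fold change of the 115 was 0.24 in OE1 and 0.51 in TNG67, beside 0.01 and 0 over all genes. In OE1, 27 were upregulated and 10 downregulated DEGs, beside 6.66% and 5.84% of all genes. The numbers in TNG67 were 40 and 13, beside 9.53% and 9.75%. Between the genotypes, 18 of the 115 were higher and 37 lower in OE1 at 150 mM NaCl, where 11.2% of all genes were higher and 14.6% lower. At 0 mM NaCl, 15 were higher and 21 lower, where 9.55% of all genes were higher and 12.5% lower. Of 152 LRR proteins without kinase in the description, which include the 4 shortened ones, 45 rose and 20 fell in OE1 and 60 rose and 25 fell in TNG67 with NaCl. In OE1 against TNG67, 28 of these were higher and 29 lower at 150 mM NaCl, and 19 were higher and 21 lower at 0 mM NaCl.

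Downstream of receptors, 7 receptor-like cytoplasmic kinases, which pick up the signal at the membrane, had 3 members that rose and 1 that fell with NaCl in each genotype, and at each NaCl level 1 was higher and 1 lower in OE1 than in TNG67. Of 36 mitogen-activated protein kinase cascade genes, 8 rose and 7 fell in OE1 and 15 rose and 8 fell in TNG67, and in OE1 against TNG67 3 were higher and 11 lower at 150 mM NaCl and 3 were higher and 3 lower at 0 mM NaCl. Of 48 brassinosteroid genes, 9 rose and 13 fell in OE1 and 10 rose and 19 fell in TNG67, and at each NaCl level 7 were higher and 6 lower in OE1 than in TNG67. Of 15 peptide hormone genes, which include the phytosulfokine precursors, 5 rose and 5 fell in OE1 and 5 rose and 7 fell in TNG67. OE1 had 4 of these higher and 3 lower than TNG67 at 150 mM NaCl and 2 higher and 4 lower at 0 mM NaCl. Among all genes, 19.6% rose and 19.2% fell with NaCl in OE1, and 27.4% rose and 27.2% fell in TNG67. In OE1 against TNG67, 11.2% of all genes were higher and 14.6% lower at 150 mM NaCl. At 0 mM NaCl these shares were 9.55% and 12.5%.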

How the data were processed

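The authors trimmed the reads with Trimmomatic 0.38, aligned them to IRGSP-1.0 with HISAT2 2.1.0 and deposited 1 file for each library. As signal values, the authors gave read counts on genes after division by size factors. The files of a NaCl level list the same genes and were joined here into 1 table for that level. The counting tool, its use of strand and its treatment of shared reads are not given in the sources used here. All values (100%) were whole multiples of 1 read to within 0.001 reads. For 3 OE1 libraries (untreated replicate 2, NaCl-treated replicates 1 and 2) a read is worth within 0.01 of 1, and nothing beyond that test bears on their recovery. Median-ratio factors of all 12 libraries came within 0.0916% of the recovered ones, while those computed table by table were off by 5.94% or more, so both tables were set on 1 scale. The lowest correlation between replicates was 0.986.

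Log2 of the value plus 1 was fitted with limma 3.58.1 (R 4.3.3) in 1 model of the 4 groups, with a mean-variance trend and robust moderation, over the 24922 genes of both tables. The 658 genes listed at 0 mM NaCl only and the 1031 listed at 150 mM NaCl only were left out. In each comparison the Benjamini-Hochberg adjustment ran over all these genes, and fold changes are on the log2(value + 1) scale, which understates changes of low genes. The script was tested on simulated data. Alternatives were edgeR 4.0.16 and DESeq2 1.42.0 on recovered reads, other scalings, a pseudocount of 0.1, a filter at a mean of 20, 6-library fits, a replicate block, no fold threshold and each library left out. On the recovered reads edgeR (TMM) called 3186 DEGs for NaCl in OE1 and 4851 in TNG67, against 3115 and 4804 with limma.

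The genes and lists were chosen with earlier results of these data known. The rule for named genes takes the DEGs, those past the interaction test, the 8 with the highest mean, and those with a familiar receptor name (MSP1, phytosulfokine receptor). The other 5 are described so that all 16 have values. The deposited columns of group means were not used. Of the 16, 14 matched the gene table of RefSeq, used for names alone, and no sequences were used. Levels were not compared between genes, as no transcript lengths were used.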

Additional observations from a re-analysis of the deposited data

Results flagged for a closer look

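Among the 16 receptor kinases, the 4 genes with the shortened description and the 5 precursor genes, 3 had a NaCl response that differed between OE1 and TNG67 by the interaction test of limma. Of all genes tested, 11.4% did. For Os02g0283800 the difference was -0.34 (SE 0.09, adjusted p = 0.0232), with every OE1 library below every TNG67 library at 150 mM NaCl and above them at 0 mM NaCl. That call was lost in several leave-one-out fits and with library size as the only scaling. For the precursor gene Os07g0124100 the difference was -2.89 (SE 0.50, adjusted p = 0.00213), with NaCl effects of 0.89 in OE1 and 3.78 in TNG67. For the precursor gene Os11g0557000 it was 0.55 (SE 0.13, adjusted p = 0.0134), with NaCl effects of 0.28 in OE1 and -0.26 in TNG67. Single libraries were not tested as outliers, since each group holds 3.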

How the results depend on the processing

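Across the 16 receptor kinases and 5 comparisons, 1584 alternative values were computed, of which 1484 kept their sign and their side of the adjusted p threshold. In 49 a call was lost, 36 of them with a library left out and 13 under another setting, and in 16 a call was gained, 6 and 10 of them in the same order. In 35 an uncalled value changed sign, and no called value did. Without the fold threshold the numbers of genes called were 10 for NaCl in OE1, 10 for NaCl in TNG67, 3 between OE1 and TNG67 with NaCl and 3 without, against 3, 3, 0 and 0 DEGs. The interaction had 0 genes with edgeR scaled by library size alone and 0 with limma on equal totals, against 1. With each library left out in turn, 3 to 4 genes were DEGs for NaCl in OE1, 2 to 4 for NaCl in TNG67, 0 for OE1 against TNG67 at each NaCl level, and 0 to 1 passed the interaction. Counting the 4 genes with the shortened description gave 4 DEGs of 20 genes for NaCl in each genotype. Of all genes, 6.66% were upregulated and 5.84% downregulated DEGs with NaCl in OE1, and 9.53% and 9.75% in TNG67. The cause of these changes between settings was not tested.

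Libraries with the same replicate number did not deviate together over genes with a mean of at least 20 (18 pairs, correlations from -0.155 to 0.0462, none over 0.1). A pairing or batch that touches only some genes could be missed by these correlations, so whether the number marks one is not settled. Over all genes, 2311 passed the interaction with a replicate block, against 2833 without it. Among the 16 genes, the block gave 3 called for NaCl in OE1, 3 in TNG67, 0 and 0 between the genotypes and 1 for the interaction, and of the 80 values 78 kept their call. The exceptions were Os02g0283800 between OE1 and TNG67 at 0 mM NaCl (adjusted p = 0.0563) and Os07g0107800 for NaCl in TNG67 (0.0551). The genes with the fewest reads, Os02g0154000, Os06g0691800, Os03g0183800 and Os08g0442700, had the widest intervals of the group, so their smaller changes could go unseen at this depth.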
